A study of Homo sapiens with 6 samples.

Results

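The genes described here encode the enzymes that make and acetylate polyamines and the antizyme system that controls the first of them. They were taken by name as 8 genes, ODC1, AMD1, SRM, SMS, SAT1, OAZ1, OAZ2 and AZIN1, and all 8 were found among the 37339 counted transcripts that matched a GENCODE annotation. Levels were measured in K562, a human chronic myelogenous leukemia line, grown without treatment, with 4 total RNA-seq libraries made after rRNA depletion and 2 PRO-seq libraries. PRO-seq sequences the nascent RNA of engaged RNA polymerases, whereas total RNA-seq measures RNA at steady state. According to the study's methods all libraries came from cells of the same flask, so the spread between libraries is technical and does not cover differences between cultures.

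Polyamines (putrescine, spermidine and spermine) are small cations that bind RNA and DNA and are needed for growth. ODC1, ornithine decarboxylase, makes putrescine from ornithine. AMD1, S-adenosylmethionine decarboxylase, supplies the aminopropyl groups that SRM (spermidine synthase) and SMS (spermine synthase) add in turn. SAT1 acetylates spermidine and spermine for export or breakdown. The antizymes OAZ1 and OAZ2 bind ODC1 and send it to the proteasome, and AZIN1, an ODC1 homologue without enzyme activity, binds antizymes in its place. Much of the known control of the pathway acts on translation and protein turnover, which neither assay measures.

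The deposited values were read counts per transcription unit (TU), with a single transcript standing for nearly every gene. Counts on TUs ranged from 5732780 to 9002746 in RNA-seq and were 6993816 and 7245632 in PRO-seq. They were converted to TPM, a level scaled for length and library total,, per exon length for RNA-seq and per TU span less 500 bp at each end, the counting window, for PRO-seq. Relative half-life was the ratio of the RNA-seq to the PRO-seq level, computed where PRO-seq exceeded 10 TPM and RNA-seq 1 TPM (10053 TUs), and is given on the log2 scale relative to the median of the 8733 mRNAs among them. It has no time unit, and it treats PRO-seq density as the rate of synthesis, from which the speed of elongation cannot be told apart. Of the 10 erythroid and K562 marker genes, 10 were above 1 TPM in RNA-seq, while CD3E and MS4A1, of lymphoid cells, were below it. In such bulk samples, fewer cells with a transcript and less of it per cell cannot be told apart.

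In these cells ODC1 and OAZ1 RNA were far more abundant than that of the other 6 genes, at means of 1415 and 1719 TPM. SMS followed at 289 TPM, AMD1 at 179 TPM, AZIN1 at 120 TPM and SAT1 at 88.1 TPM. SRM, at 44.5 TPM, and OAZ2, at 39.1 TPM, were lowest. Nascent transcription followed another order. ODC1 was again highest of the 7 genes with PRO-seq counts, at 283 TPM, but SRM came next at 159 TPM, ahead of AMD1 (128 TPM) and SAT1 (120 TPM), and SMS, OAZ2 and AZIN1 lay close together at 47.9, 45.6 and 43.1 TPM. With the counts of an assay's libraries summed, the highest level exceeded the lowest 44.2-fold in RNA-seq, and 6.58-fold in PRO-seq among the 7 genes with counts there. Between neighbours in the RNA-seq order, only SRM and OAZ2 overlapped in range. In PRO-seq, AMD1 and SAT1 overlapped, and each other neighbouring pair was ordered alike in 2 of 2 libraries, some by small margins: SMS exceeded OAZ2 1.05-fold and OAZ2 exceeded AZIN1 1.06-fold.

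**Figure D1:**
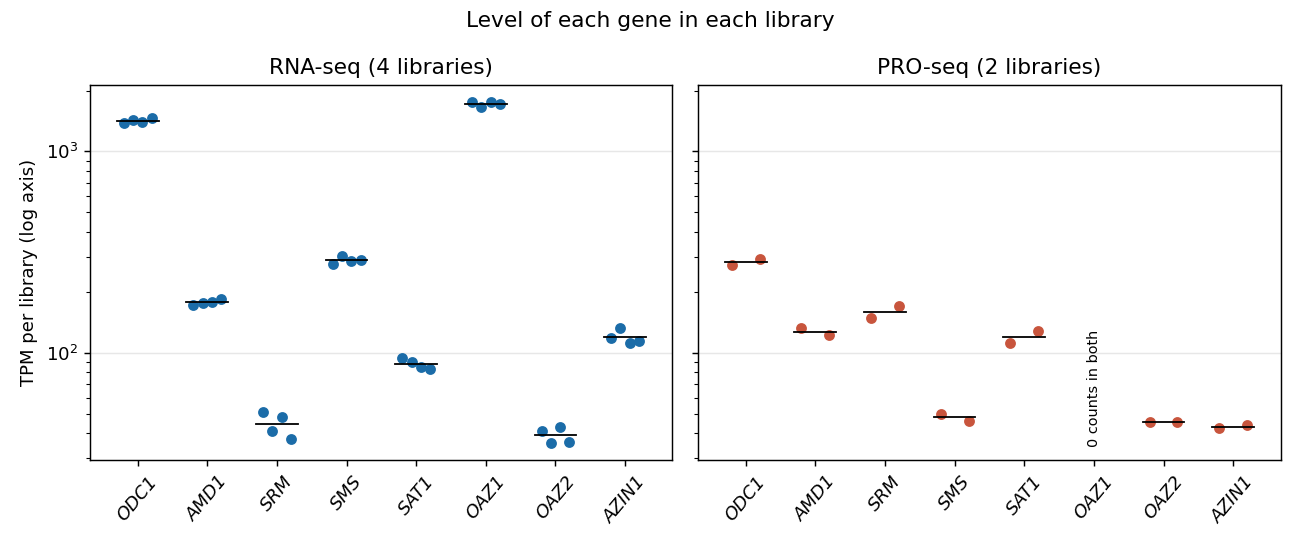
TPM of the 8 genes in each of the 4 RNA-seq libraries (left) and 2 PRO-seq libraries (right), on a log axis, with a point per library in replicate order and a line at the mean. ODC1 and OAZ1 stand above 1000 TPM in RNA-seq, SRM has a high PRO-seq and a low RNA-seq level, and OAZ1 has 0 PRO-seq counts and so no point there.

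Relative half-life could be estimated for 7 of the 8 genes, all but OAZ1. With edgeR's quasi-likelihood test and Benjamini-Hochberg adjustment over all 10053 TUs, 5 of the 7 lay above the median mRNA (ODC1, SMS, AZIN1, AMD1 and OAZ2), 1 lay below it (SRM), and SAT1 did not pass the test. Of all TUs tested, 40.0% were called above and 50.4% below the median mRNA, so that a call in itself says little at this precision and the size of each estimate matters more. The median over the 7 genes was 1.12 on the log2 scale, beside -0.24 over all TUs tested and 0.00064 over the mRNAs among them. Of those 8733 mRNAs, 3962 were called above and 3923 below. When only differences of over 2-fold were tested, with edgeR's glmTreat, ODC1, SMS, AZIN1 and AMD1 were called above and SRM below, while OAZ2 was no longer called. Of all TUs, 21.3% and 29.8% were called above and below in that test.

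**Figure D2:**
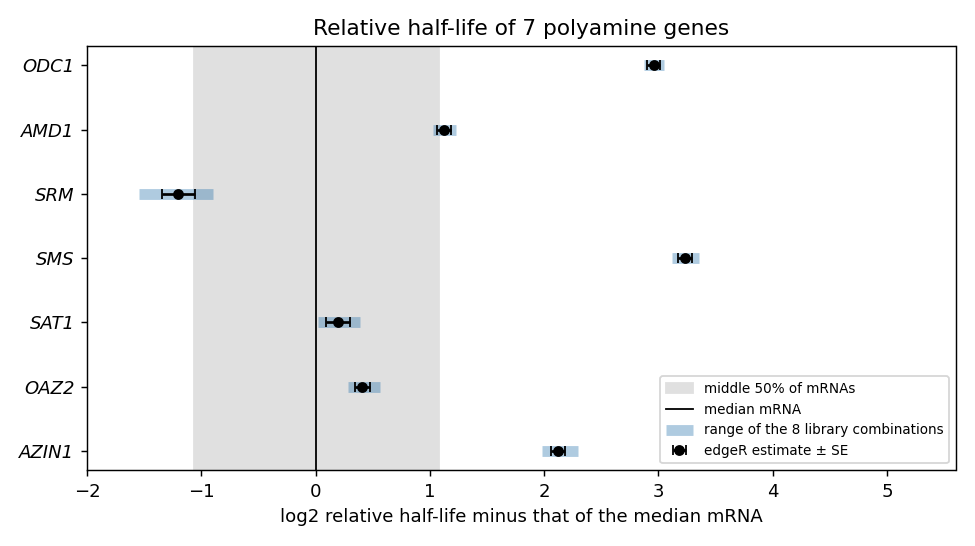
Log2 relative half-life of 7 genes minus that of the median mRNA (vertical line), as the edgeR estimate ± SE from the spread between libraries, with a pale bar for the range of the 8 combinations of an RNA-seq and a PRO-seq library. The grey band, from -1.06 to 1.08, holds the middle 50% of mRNAs, and ODC1, SMS and AZIN1 lie clear of it to the right.

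ODC1, the enzyme of the first step, was among the most transcribed and the most abundant mRNAs. The counted transcript lies at chr2:10580094-10588453 on the minus strand (GRCh37) and has 12 exons. Its RNA-seq level was 1387, 1426, 1394 and 1455 TPM in replicates 1 to 4, and its PRO-seq level was 273 and 294 TPM in replicates 1 and 2. All RNA-seq libraries were within a few percent of their mean (coefficient of variation 2.20%, n = 4). Ranked by level, ODC1 exceeded 99.4% of the 16122 mRNAs with an RNA-seq count and 98.5% of the 16709 with a PRO-seq count. The RNA-seq excess was the larger, and its relative half-life was 2.96 ± 0.056 (log2, SE) above the median mRNA, or 7.77-fold (edgeR, adjusted p = 2.08e-31), higher than that of 96.0% of mRNAs tested.

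AMD1 is the other decarboxylase of the pathway. Its counted transcript, at chr6:111195973-111216916 on the plus strand, is annotated as a target of nonsense-mediated decay, but shares 3106 of its 3121 exon bases with the canonical transcript. AMD1 measured 173, 177, 179 and 184 TPM in RNA-seq and 133 and 122 TPM in PRO-seq. The estimate was 1.12 ± 0.060 (log2, SE), or 2.18-fold above the median mRNA (edgeR, adjusted p = 1.73e-18), at the 75.7th percentile of mRNAs, near the edge of the middle 50%. Of the 3047 stretches of 75 bases, the RNA-seq read length, in this transcript, 155 (5.09%) occur elsewhere in GRCh37 without a mismatch, and the processed pseudogenes AMD1P1, AMD1P3 and AMD1P4 held 1, 3 and 0 RNA-seq counts.

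The ratio of the RNA of both decarboxylases hardly varied between RNA-seq libraries. Within a library, ODC1 exceeded AMD1 by between 2.96 and 3.01 on the log2 scale in RNA-seq, and by 1.04 and 1.26 in PRO-seq, so that the groups did not overlap. The difference in log2 relative half-life was 1.84 ± 0.11 (SE), or 3.57-fold longer for ODC1. An exact permutation test of the library labels, two-sided, gave p = 0.0667, the smallest of its 15 arrangements, so that no pair of genes could pass 0.05 in this design. In all, 3 such pairs were compared (this pair, SRM with SMS and ODC1 with AZIN1), and the adjusted p was 0.0667 in each.

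The aminopropyltransferases SRM and SMS, which act in consecutive steps, had opposite balances of nascent and steady-state RNA. SRM, at chr1:11114646-11120075 on the minus strand, measured 51.0, 41.0, 48.3 and 37.6 TPM in RNA-seq and 148 and 170 TPM in PRO-seq. SMS, at chrX:21958827-22012955 on the plus strand, measured 278, 302, 286 and 288 TPM in RNA-seq and 49.8 and 46.0 TPM in PRO-seq. In each RNA-seq library SMS was above SRM, and in each PRO-seq library SRM was above SMS.

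SRM ranked above 95.7% of mRNAs in PRO-seq and above 77.8% in RNA-seq, while SMS ranked above 73.6% and 96.5%. The relative half-life of SRM was -1.20 ± 0.14 (log2, SE), 2.30-fold below the median mRNA (edgeR, adjusted p = 8.61e-11), at the 22.4th percentile. That of SMS was 3.23 ± 0.063 above it, or 9.38-fold (edgeR, adjusted p = 1.21e-29), at the 97.3rd percentile and the highest of the 7 genes. The difference of SRM less SMS was -4.44 ± 0.20 on the log2 scale, or 21.7-fold, with the smallest p of the same exact permutation test, 0.0667.

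The SRM estimate had the largest SE of the called genes. Its RNA-seq coefficient of variation was 14.0% (n = 4), beside 7.38% from counting alone, and its level was higher in libraries 1 and 3 than in 2 and 4. OAZ1 and OAZ2 RNA were likewise higher in libraries 1 and 3, while ODC1 and SMS RNA were lower there. Reads assigned to no TU, ambiguous ones included, made up 68.5% and 68.6% of the records of RNA-seq libraries 1 and 3, and 66.5% of those of libraries 2 and 4. SRM also has a high G+C content over its exons (63.7%, above 93.5% of mRNAs tested). Whether these features bear on the spread was not tested.

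SMS has copied sequence elsewhere. Of the 1629 stretches of 75 bases in its transcript, 385 (23.6%) also occur elsewhere in GRCh37 without a mismatch, and the processed pseudogene SMSP1 held 0 counts in both assays. Counts depend on how reads from those stretches were assigned, which the sources used here do not state. SMS and AMD1 happened to hold the same PRO-seq counts, 684 and 644 in replicates 1 and 2, over windows of 53129 and 19944 bp, so that their PRO-seq TPM differed.

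Sequences upstream of the start sites are shown for ODC1, SRM and AMD1, the 3 genes with the highest PRO-seq levels, and for SMS as the partner of SRM. They are the 250 bases before the RefSeq start nearest to that of the counted transcript, on GRCh38.p14, 5′ to 3′ on the strand of the gene. Capitals mark matches on either strand to 4 motifs. The E-box was searched as CACGTG. The GC box was searched as GGGCGG. The TATA box was searched as TATAA. The CCAAT box was searched by those letters. The ODC1 window is chr2:10448328-10448577, that of AMD1 chr6:110874534-110874783, that of SRM chr1:11060019-11060268 and that of SMS chrX:21940459-21940708.
ODC1: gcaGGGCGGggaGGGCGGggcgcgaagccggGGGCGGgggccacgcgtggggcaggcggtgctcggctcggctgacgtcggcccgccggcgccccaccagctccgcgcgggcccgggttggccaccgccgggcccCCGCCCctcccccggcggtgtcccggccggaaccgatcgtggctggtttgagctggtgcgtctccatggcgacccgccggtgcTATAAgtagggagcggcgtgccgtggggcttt
AMD1: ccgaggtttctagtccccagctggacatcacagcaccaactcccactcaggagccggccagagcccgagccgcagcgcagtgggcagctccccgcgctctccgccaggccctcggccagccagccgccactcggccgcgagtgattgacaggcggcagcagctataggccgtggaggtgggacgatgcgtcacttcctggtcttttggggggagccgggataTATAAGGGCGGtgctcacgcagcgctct
SRM: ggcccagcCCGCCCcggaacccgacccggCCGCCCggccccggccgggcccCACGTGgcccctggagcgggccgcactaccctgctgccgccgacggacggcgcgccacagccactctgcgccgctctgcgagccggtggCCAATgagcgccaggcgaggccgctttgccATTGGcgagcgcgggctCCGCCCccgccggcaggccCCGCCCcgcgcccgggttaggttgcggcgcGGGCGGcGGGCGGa
SMS: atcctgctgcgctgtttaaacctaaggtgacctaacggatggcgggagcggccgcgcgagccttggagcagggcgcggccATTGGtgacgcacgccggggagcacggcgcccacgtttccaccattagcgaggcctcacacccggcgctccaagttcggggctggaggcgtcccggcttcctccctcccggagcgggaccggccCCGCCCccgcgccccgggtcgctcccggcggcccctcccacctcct

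Both decarboxylase genes had a TATA box match close to the RefSeq start shown. It lay from 32 to 28 bases before that start in ODC1. In AMD1 it lay from 28 to 24 bases before, where it adjoins a GC box match. The counted AMD1 transcript starts at -14 relative to that RefSeq start. The match depends on the start chosen: windows of another start of each gene, chr2:10448013-10448262 (ODC1) and chr6:110814367-110814616 (AMD1), held no TATAA. None of the other 5 genes with a RefSeq promoter (SRM, SMS, SAT1, OAZ1 and OAZ2) matched TATAA in the 250 bases. The match was present in 18.9% of 35116 RefSeq promoters. SRM had an E-box, a site that MYC and MAX bind in many growth genes, at 199 to 194 bases before the start, along with 2 CCAAT box and 6 GC box matches. The other 6 windows held no E-box, although the 250 bases before another RefSeq start of ODC1, chr2:10448013-10448262, held 1. An E-box was found in 6.34% of promoters, a CCAAT box in 4 of the 7 genes and 32.0% of promoters, and a GC box in 6 of the 7 genes and 42.6% of promoters. The G+C content of the windows ranged from 66.4% in SAT1 to 82.0% in SRM, beside a median of 58.0% and an upper quartile of 68.0% over all promoters. The windows of SAT1, AMD1 and OAZ2 lay below that quartile. A match describes the letters only and is no evidence of binding.

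SAT1, the acetyltransferase, was the member nearest to the median mRNA. The gene is short, at chrX:23801290-23804327 on the plus strand. It measured 94.1, 89.7, 85.0 and 83.7 TPM in RNA-seq and 112 and 128 TPM in PRO-seq. Its relative half-life was 0.20 ± 0.11 above the median mRNA (log2, SE) and did not pass the test (edgeR, adjusted p = 0.166). The PRO-seq level rests on 59 and 69 counts over a window of 2038 bp, from which counting alone gives a coefficient of variation of 12.5%, beside 9.70% between the libraries. The window leaves out a large part of the 3038 bp span, and with 500 bp removed in all the estimate was 0.46 and was called above the median mRNA (adjusted p = 0.00185).

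OAZ1 had the highest RNA-seq level of the 8 genes and 0 counts in both PRO-seq libraries. RNA-seq measured 1752, 1660, 1757 and 1709 TPM, from 4643 to 6896 counts, above 99.5% of mRNAs and 1.21-fold above ODC1 on average. In PRO-seq a count of 3 would have been 1.93 TPM, for counting error only. No relative half-life was therefore computed, and the pair of OAZ1 and OAZ2 could not be compared.

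The PRO-seq window of OAZ1 lies almost whole (99.5%) inside that of another TU on the same strand. OAZ1 spans chr19:2269508-2273487 on the plus strand (GRCh37), and the other TU, ENSG00000273734, spans chr19:2269524-2341170, starts 16 bp further on and held 344 and 415 PRO-seq counts but 3 to 6 RNA-seq counts a library. Over all mRNAs with at least 500 RNA-seq counts, a window lying at least 99% inside another counted TU on the same strand went with 0 PRO-seq counts in 114 of 174 cases (65.5%). The share was 0 of 176 where the containing TU was on the opposite strand only, and 11 of 6713 (0.164%) where there was none. The part of this overlap in the 0 of OAZ1 was not tested on reads, and no level of OAZ1 transcription is given from this window.

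**Figure D3:**
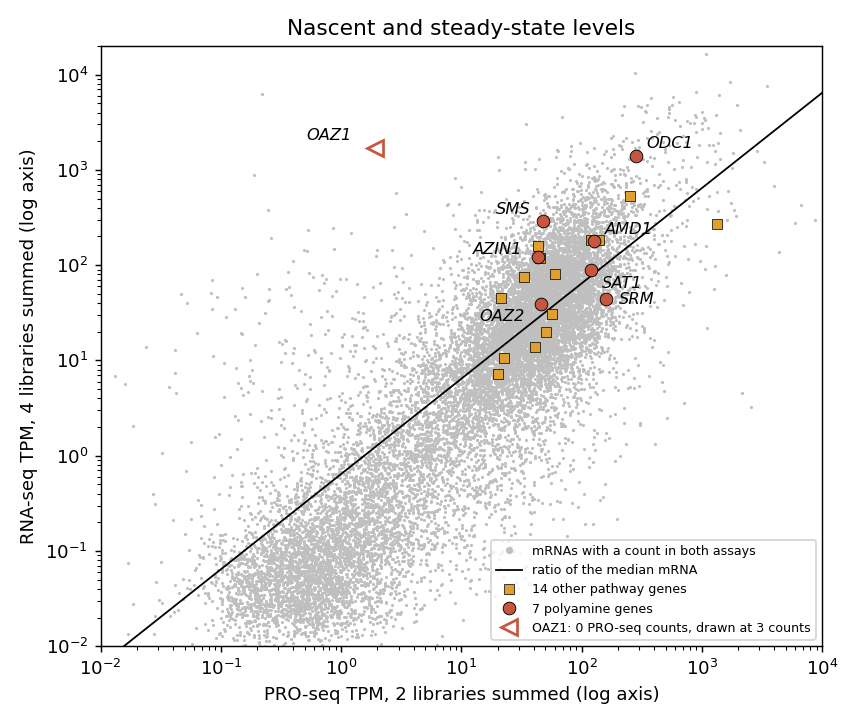
RNA-seq TPM against PRO-seq TPM, each from summed libraries and on log axes, for mRNAs with a count in both assays (grey), the 7 genes with PRO-seq counts (circles) and 14 other genes of the pathway (squares); the line is the ratio of the median mRNA. OAZ1, with 0 PRO-seq counts, is drawn at the 1.93 TPM that 3 counts would give and stands apart from the other genes, while SRM lies below the line.

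OAZ2, the other antizyme gene of the 8, was lowly expressed beside OAZ1. At chr15:64979772-64995480 on the minus strand, it measured 41.2, 35.8, 43.2 and 36.1 TPM in RNA-seq and 45.5 and 45.7 TPM in PRO-seq. OAZ1 RNA exceeded OAZ2 RNA in each library, and the ranges lie far apart. The relative half-life of OAZ2 was 0.41 ± 0.068 above the median mRNA (log2, SE), or 1.33-fold (edgeR, adjusted p = 4.28e-04), at the 60.3rd percentile. Its PRO-seq coefficient of variation was 0.257% between the libraries, beside 7.56% from counting alone. The SE therefore understates the error of this estimate. A lncRNA TU on the opposite strand covers 7.03% of its window.

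Antizymes are made through a +1 ribosomal frameshift that polyamines stimulate, and the annotation models the shift by leaving a base out between a pair of exons. The spliced sequences of the canonical transcripts OAZ1-211 and OAZ2-201 around that base are shown because the counted OAZ1 transcript lacks the site. Capitals mark the codon before the omitted base, which lies at chr19:2271442 in OAZ1 and chr15:64983714 in OAZ2 (GRCh37), and the 3 bases after it.
OAZ1-211: cctcggtggtgcTCCGATgcccctcaccca
OAZ2-201: cctctgtggtgcTCCGATgcccctcaccca

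The 30 bases were alike at 29 positions. OAZ2-201 is the counted transcript of OAZ2. For OAZ1 the counted transcript was OAZ1-207, annotated as a target of nonsense-mediated decay, which skips the exons at chr19:2271384-2271529 on both sides of the omitted base, 145 bases in all. It shares 1001 of its 1012 exon bases with OAZ1-211, so the RNA-seq counts of OAZ1 cover sequence common to both transcripts and do not measure the frameshift exons. Such a gap of a single base was found in 145 of 37255 counted transcripts.

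AZIN1, the antizyme inhibitor, had a long relative half-life in a transcript that stands poorly for the gene. It measured 119, 133, 112 and 115 TPM in RNA-seq, where replicate 2 was highest, and 42.2 and 43.9 TPM in PRO-seq. The relative half-life was 2.12 ± 0.063 above the median mRNA (log2, SE), or 4.36-fold (edgeR, adjusted p = 6.49e-21), at the 90.2nd percentile. The counted transcript, at chr8:103862227-103906092 on the minus strand, has 4 exons, no defined coding sequence, and 138 of its 576 exon bases in common with the canonical transcript. Counts on it ranged from 168 to 315 in RNA-seq. Of its PRO-seq window of 42866 bp, 13665 bp lie within the canonical transcript, and 66.7% is covered by MAILR, a lncRNA on the opposite strand that held 290 PRO-seq counts. The sources used here do not state whether counting used the strand.

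ODC1 and AZIN1 proteins compete for antizyme, and ODC1 exceeded AZIN1 in each library of both assays, by more in RNA-seq than in PRO-seq. In RNA-seq ODC1 exceeded AZIN1 by between 3.42 and 3.66 on the log2 scale, and in PRO-seq by 2.69 and 2.74. The difference in log2 relative half-life was 0.85 ± 0.061 (SE), or 1.80-fold, with the smallest p of the exact permutation test, 0.0667. With only the lengths replaced by those shared with canonical transcripts, and the counts unchanged, the difference was 0.44.

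The genes most like each member were those at the smallest distance in log2 TPM over the 6 libraries, among 8716 other mRNAs tested. They were CCT5 (a chaperonin subunit, distance 0.391) and RPL27 (a ribosomal protein, 0.422) for ODC1, and BTBD1 (0.167) and CTSC (0.176) for AMD1. PLK1, a mitotic kinase (0.275), and B3GAT3 (0.281) were nearest to SRM, and APOC1 (0.204) and TXNRD1, a thioredoxin reductase (0.228), to SMS. UQCRB (0.205) and REXO4 (0.226) were nearest to SAT1, CTNNBIP1 (0.0929) and LDAH (0.185) to OAZ2, and TXNL1 (0.198) and MAT2B (0.222) to AZIN1. MAT2B, the regulatory subunit of the enzyme that makes S-adenosylmethionine, belongs to the same pathway.

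The counted transcripts of the 8 genes were mostly short. All had exons shorter in sum than the mRNA median of 3064 bases, except AMD1 at 3121, but AZIN1 is among them only through the counted transcript of 576 bases, its canonical transcript having 4196. Of the counted transcripts, 6 had spans below the median of 29515 bp, the exceptions being SMS (54129 bp) and AZIN1 (43866 bp). Splice junction density differed among them. It was 5.87 per kb of exon in SMS and 5.56 in SRM, above 85.9% and 83.1% of mRNAs, so that the genes with the highest and the lowest relative half-life had like densities. AMD1 had the lowest density, at 1.60 per kb.

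Beyond the 8 genes, 24 other genes of polyamine metabolism were listed, of which 14 had a relative half-life. Of these, 8 were called above and 6 below the median mRNA, beside 40.0% and 50.4% of all TUs, and 3962 and 3923 of the 8733 mRNAs. The median of the 14 genes was 1.06 on the log2 scale. Each branch with more than 1 estimate held genes on both sides of the median mRNA.

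In the supply of S-adenosylmethionine, the catalytic gene MAT2A and the regulatory gene MAT2B stood on opposite sides. MAT2A had the highest PRO-seq level of all the genes listed, with 1356 and 1332 TPM, but 255, 281, 252 and 287 TPM in RNA-seq, and its relative half-life against the median mRNA was -1.68 (log2, SE 0.050, edgeR adjusted p = 4.13e-24). MAT2B measured 118 TPM in RNA-seq and 45.0 TPM in PRO-seq, and lay 2.03 above it (SE 0.021, edgeR adjusted p = 3.19e-21). The 2 PRO-seq libraries happened to agree closely for MAT2B (44.7 and 45.4 TPM), on 358 counts in all. Counting error may therefore exceed this SE.

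In methylthioadenosine salvage, which recycles the by-product of SRM and SMS, ADI1 and ENOPH1 were above the median mRNA and MRI1 and APIP below it. ADI1 measured 158 TPM in RNA-seq and 43.5 TPM in PRO-seq (log2 2.49, SE 0.043). ENOPH1 measured 74.6 and 33.2 TPM (1.81, SE 0.056), MRI1 30.6 and 56.6 TPM (-0.25, SE 0.17) and APIP 20.1 and 50.7 TPM (-0.70, SE 0.061). The counted APIP transcript shares 13.4% of its exon bases with the canonical transcript. MTAP, which starts the salvage, had 0 counts in all 6 libraries. Its counted transcript shares 12.1% of its exon bases with the canonical transcript, and the reason for the 0 was not tested.

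Hypusine, a modified lysine made from spermidine, is formed on EIF5A by DHPS and DOHH. EIF5A measured 533 TPM in RNA-seq and 251 TPM in PRO-seq (log2 1.72, SE 0.078) and DOHH 81.2 and 59.7 TPM (1.09, SE 0.075), both called above the median mRNA. EIF5A2, the paralogue, measured 10.7 and 22.5 TPM and was called below it (-0.44, SE 0.17).

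Of the transporters, SLC18B1 (45.4 TPM in RNA-seq and 21.4 TPM in PRO-seq, log2 1.73, SE 0.15), ATP13A3 (183 and 120 TPM, 1.25, SE 0.029) and SLC3A2 (185 and 140 TPM, 1.04, SE 0.061) were called above the median mRNA. Of the PRO-seq windows of SLC3A2 and SLC18B1, 23.5% and 66.9% lie within the canonical transcript. ATP13A2, a lysosomal polyamine exporter, was called below it (13.7 and 40.6 TPM, -0.93, SE 0.15). PAOX, an oxidase of acetylated polyamines, was called below it as well (7.23 and 20.1 TPM, -0.83, SE 0.15).

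**Figure D4:**
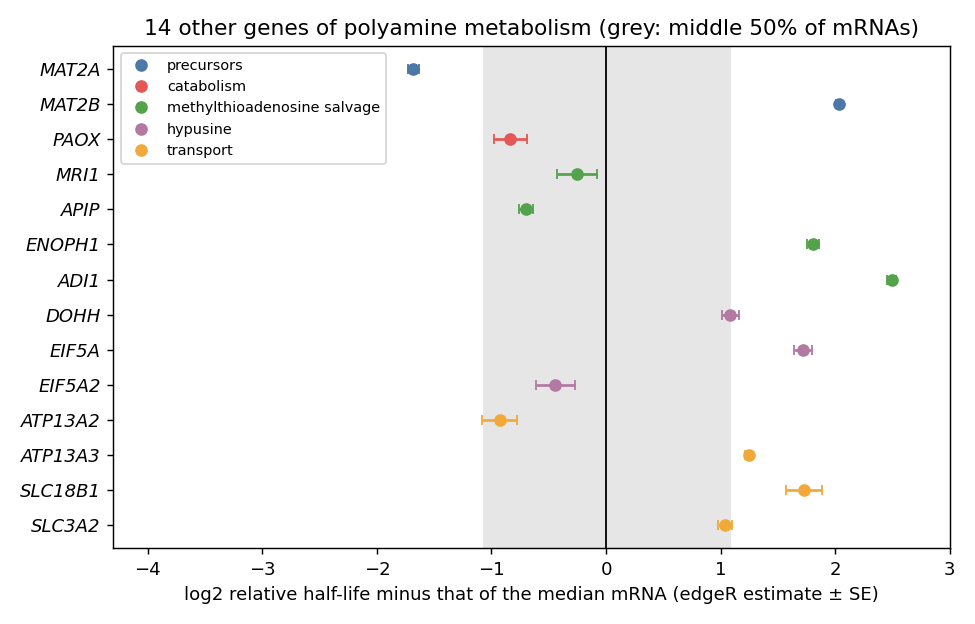
Log2 relative half-life of 14 other genes of polyamine metabolism minus that of the median mRNA (vertical line), as edgeR estimate ± SE from the spread between libraries, coloured by branch. The grey band holds the middle 50% of mRNAs, with MAT2A lowest at -1.68 and ADI1 highest at 2.49.

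The other 10 genes did not reach the thresholds. ARG2, which makes ornithine, measured 25.1 TPM in RNA-seq and 5.78 TPM in PRO-seq, while ARG1 measured 0.305 TPM in RNA-seq with 0 PRO-seq counts. AZIN2, the relative of AZIN1, measured 0.0982 and 1.34 TPM, and OAZ3, an antizyme of the testis, 1.48 and 8.76 TPM. The remaining genes, SMOX, SAT2, SATL1, AGMAT, DHPS and MTAP, were at or below 10.3 TPM in RNA-seq and 5.19 TPM in PRO-seq. The counted transcripts of SMOX and OAZ3 share 26.8% and 63.9% of their exon bases with the canonical transcripts. Those of SMOX and SAT2 have no defined coding sequence, and SAT2 held 1 PRO-seq count. Such levels may stand poorly for the genes.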

How the data were processed

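Total RNA-seq (4 libraries, single-end reads of 75 bases) and PRO-seq (2 libraries) were made from K562 cells. The authors trimmed reads with Cutadapt, aligned them with HISAT2 to GRCh38 and deposited HTSeq counts per transcript, without normalization, over exons for RNA-seq and without 500 bp at the ends for PRO-seq. The sources used here state neither tool versions nor a strand setting. Rows naming no TU (66.5% to 68.6% of RNA-seq and 86.5% to 88.6% of PRO-seq records) were left out. Transcripts were joined to GENCODE on GRCh37 by identifier (88.1% of 42371), so lengths and TU coordinates can differ from those counted on. Motifs were searched in RefSeq promoters on GRCh38.p14.

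The labels number the libraries, and do not state whether RNA-seq and PRO-seq libraries with the same number belong together. edgeR 4.0.16 (R 4.3.3) tested RNA-seq against PRO-seq by its quasi-likelihood test with TMM, length offsets and the median mRNA set to 0, over 10053 TUs, at adjusted p under 0.05. SEs are from the spread of log2 TPM between libraries. With only 2 PRO-seq libraries, an SE can fall below counting error where those libraries happen to agree closely. The SEs and the tests count the 4 RNA-seq libraries as separate. Libraries 1 and 3 had close shares of reads assigned to no TU (68.5% and 68.6%), as had 2 and 4 (66.5% each), so they may be pairs. With these pairs summed, ODC1 was at 2.96, SRM at -1.20 and OAZ2 at 0.41, and no member's call changed. DESeq2 1.42.0 was an alternative, beside other lengths, filters, scalings, centres and left-out libraries. On simulated data, a 2-fold difference was recovered for 93.5% of 200 TUs among 10053, with 11 false calls. The simulation used a single dispersion, equal lengths and no difference for the other TUs. In the data most TUs were called, so these rates need not hold for them. Counting intervals and the value for 3 counts cover counting error only, since no molecular identifiers were counted. The members, the gene lists and the tests were chosen with earlier results of these data known. Named genes were all 8 members, each other pathway gene called in a direction and the 2 nearest mRNAs of each member. The pathway genes below the thresholds, which that rule does not cover, were named after their values were seen, to account for the whole list.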

Additional observations from a re-analysis of the deposited data

How the results depend on the processing

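Of 126 re-estimates of the members' relative half-lives under alternatives, 122 kept their direction and their side of the threshold, and none reversed. ODC1 ranged from 2.92 to 3.62, SMS from 3.16 to 3.89, AZIN1 from 2.07 to 2.78, AMD1 from 1.05 to 1.78 and SRM from -1.29 to -0.54 (log2, against the median mRNA). SAT1, not called, was called above the median mRNA with 500 bp in place of 1000 bp removed for PRO-seq (0.46), with at least 1 summed count as the filter (0.86) and with the median of all TUs as the centre (0.44). The last 2 shift every member by 0.66 and 0.24. OAZ2 (0.41) was not called in the test for over 2-fold differences (adjusted p = 1). The counts of TUs called, 4019 above and 5066 below, became 6671 and 7881 with at least 1 summed count and 2141 and 2996 in the test for over 2-fold differences, by the construction of both alternatives. With the length shared with the canonical transcript, an alternative added after seeing the data, AZIN1 was at 2.51 and the difference between ODC1 and AZIN1 was 0.44. That alternative changes the lengths and keeps all counts, so it gives no estimate for the canonical sequence.

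With a library left out in turn, the estimates ranged from 2.92 to 2.997 for ODC1, 1.05 to 1.19 for AMD1, -1.29 to -1.12 for SRM, 3.16 to 3.30 for SMS, 0.11 to 0.28 for SAT1, 0.37 to 0.46 for OAZ2 and 2.07 to 2.15 for AZIN1, and no call changed. The pairs ranged from 0.82 to 0.90 (ODC1 less AZIN1), -4.60 to -4.28 (SRM less SMS) and 1.72 to 1.95 (ODC1 less AMD1), and counts of TUs from 3887 to 4010 above and 4893 to 5056 below. The deviations of same-numbered RNA-seq and PRO-seq libraries did not go together (r = 0.022). Noise particular to each assay could hide a shared origin, so this does not decide whether they were paired. With the replicate number as a replicate block, ODC1 was at 2.95, AMD1 at 1.10, SRM at -1.16, SMS at 3.24, SAT1 at 0.25, OAZ2 at 0.39 and AZIN1 at 2.19, with 3928 TUs above and 4959 below, and no member's call changed. Depth limits SAT1, with 128 PRO-seq counts in all, the fewest of the 7 genes with an estimate.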
